A study of Mus musculus with 6 samples.

Results

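The kinesin family was taken here as the microtubule motors whose genes are named Kif or Kifc. A kinesin with another name, such as Cenpe, was left out of the members and of all kinesin sums. Rows of the count table were taken as members when their mouse Ensembl gene ID mapped to a symbol made of Kif, a number and at most 1 letter from a to c, or to Kifc1, Kifc2, Kifc3 or Kifc5b, and when they held at least 10 counts summed over all libraries. Of 52856 rows, 42 had such a symbol and 36 passed this minimum. Known roles placed 13 members among the mitotic kinesins, 15 among the transport kinesins and 8 in a remaining class of ciliary, microtubule-regulating and atypical kinesins (other kinesins in the plots). The 6 symbols under the minimum were Kif21a with 6 counts in all, Kif27 with 3, and Kif2b, Kif6, Kif12 and Kif28 with 0.

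The RNA came from splenic CD4+ T cells of C57BL/6 mice aged 8 weeks, of the genotype miPEP31-/- (KO, 3 libraries) or wild type (WT, 3 libraries). All cells had been cultured with serum and activated for 48 hours with antibodies to CD3 and CD28, which trigger the T cell receptor and its costimulatory partner, so no resting cells were compared. miPEP31 is a peptide encoded in the precursor RNA of the microRNA miR-31, and the comparison asks how its loss alters the transcripts of activated helper T cells. The labels give neither how the allele was made nor whether each library came from a separate mouse, so the p-values measure the spread between these libraries.

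Kinesins hydrolyse ATP to walk along microtubules, or to take microtubules apart at their ends. Mitotic kinesins build the bipolar spindle, align chromosomes and help to cut the daughter cells apart, and their transcripts are made mostly from G2 phase to mitosis. Transport kinesins carry vesicles, mitochondria, lysosomes and ciliary cargo, mostly towards microtubule plus ends. In T cells, microtubule motors also act on the centrosome, lysosomes and receptor vesicles at the contact with an antigen-presenting cell, and a stimulated T cell begins to divide within days.

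Library totals lay between 22865487 and 26295776 counts. Of the 14387 rows tested, 47.3% passed the threshold (edgeR quasi-likelihood test, adjusted p under 0.05), 25.1% as higher and 22.2% as lower in the KO. The CD4 T cell markers Cd3d, Cd3e, Cd3g, Cd4, Trac, Cd28, Lck and Thy1 were all detected, with a summed level of 1855 to 2062 CPM in the KO and 2171 to 2305 CPM in the WT libraries (CPM, counts per 1000000 of the scaled library size). Among these 8 markers 5 were lower and 1 was higher in the KO. The 6 B cell markers summed to 203 to 450 CPM in the KO and 167 to 235 CPM in the WT libraries, with 3 higher. The 5 markers of CD8 T and NK cells summed to 24.9 to 48.3 CPM in the KO and 18.1 to 21.2 CPM in the WT libraries, with Cd8a and Klrk1 higher. The 7 macrophage markers summed to 33.5 to 65.5 CPM in the KO and 5.83 to 8.70 CPM in the WT libraries; Mpeg1 held 42.8 CPM of this sum on average in the KO and 1.25 CPM in the WT, while Adgre1 and C1qb were at 0. Cd68, the other macrophage marker tested, averaged 3.91 CPM in the KO and 5.46 CPM in the WT and did not pass (log2 ratio -0.48, edgeR adjusted p = 0.224). The sums of the CD4 T cell, CD8 T and NK cell and macrophage markers did not overlap between the groups, while those of B cells did. The 6 dendritic cell markers summed to 12.03 to 13.05 CPM in the KO and 6.25 to 7.58 CPM in the WT libraries, with Zbtb46 higher and Clec9a at 0. Of 5 neutrophil markers Elane, S100a8 and S100a9 were at 0 and Ly6g was lower, and the 5 erythroid markers summed to at most 0.559 CPM in the KO and 1.73 CPM in the WT libraries. What part other cells had in the kinesin values was not tested. In bulk RNA, fewer cells of a kind and less RNA per cell cannot be told apart.

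The family split by function. Of the 13 mitotic kinesins tested, 10 were lower in the KO (76.9%, where 22.2% of all rows were lower), none was higher and 3 did not pass. Of the 13 transport kinesins tested, 6 were higher (46.2%, where 25.1% of all rows were higher), 1 was lower and 6 did not pass. In the remaining class 3 of 6 tested were lower and 3 did not pass, and it held the largest fall of the family, that of Kif21b. The median log2 ratio of KO to WT was -0.31 for the mitotic, 0.10 for the transport and -0.14 for the remaining kinesins, beside 0.01 over all rows tested. The mitotic, remaining-class and whole-family medians turned to 0.02, 0.20 and 0.07 when libraries were scaled to spindle partner genes instead of to all rows, a scaling that moved the median of all rows to 0.35. That scaling holds constant the sum of a list whose own median log2 ratio was -0.31. A mitotic median near 0 under it was therefore close to fixed in advance. Later values scaled to the spindle partners carry this limit and the upward shift of all rows. The KO and WT libraries did not overlap for 11 of 13 mitotic, 7 of 13 transport and 4 of 6 remaining kinesins, where 59.1% of all rows did not overlap. The count of mitotic kinesins lower in the KO was 4 with WT replicate 2 left out, 5 with WT replicate 3 left out and 6 with KO replicate 2 left out. In these fits 2419, 2529 and 2569 of all rows were lower, beside 3197 in the main fit, and the mitotic median was -0.29, -0.30 and -0.30. The transport kinesins higher were 4 without WT replicate 1 or 2. Of all rows, 2795 and 2723 were then higher, beside 3609 in the main fit. The difference between the classes is a description of counts and medians and was not itself tested.

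**Figure D1:**
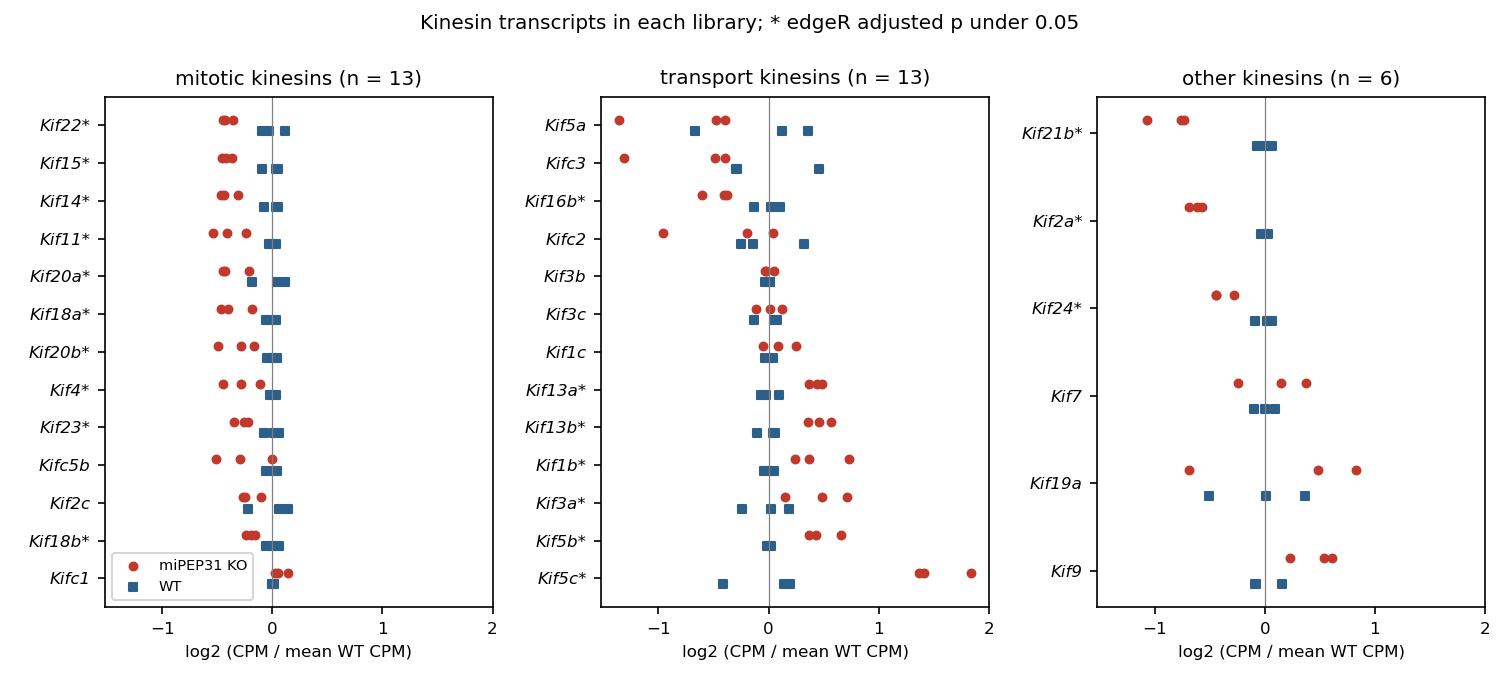
Each point is 1 library's level of 1 kinesin, as log2 of its CPM over the mean WT CPM, with miPEP31 KO circles above WT squares in each row; panels hold the 13 mitotic, 13 transport and 6 remaining kinesins tested. With libraries scaled over all rows, KO circles lie left of the WT squares in most mitotic rows and right of them for Kif5c, Kif5b, Kif1b, Kif13a and Kif13b. Scaled to spindle partner genes, the mitotic median was 0.02. That scaling holds constant a list with a like fall, so it cannot test the mitotic shift.

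Transcript abundance was compared between genes as CPM per kilobase of exon. In the KO cells Kif11 led with 28.2 ± 2.97, followed by Kif5b with 24.6 ± 2.76, Kifc1 with 22.6 ± 0.964, Kif3b with 21.7 ± 0.656 and Kif20a with 20.3 ± 1.89 CPM per kb (SD, n = 3 each). From Kif5b to Kif20a each gap between neighbours was smaller than the larger of their SDs. In the WT cells Kif11 was also highest, at 37.1 ± 0.827 CPM per kb, then Kif21b at 29.0 ± 1.41, Kif20a at 26.1 ± 2.73, Kif3b at 21.6 ± 0.400 and Kifc1 at 21.5 ± 0.196 (SD, n = 3 each). Kif3b and Kifc1 did not differ beyond their spread in the WT. Kif21b stood second in WT cells and, at 16.2 ± 1.98 CPM per kb, close to Kif18b at 16.7 ± 0.479 in KO cells. At the other end, Kif9, Kif19a, Kif5a, Kif5c, Kifc2 and Kifc3 each stayed under 0.7 CPM per kb in both groups.

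**Figure D2:**
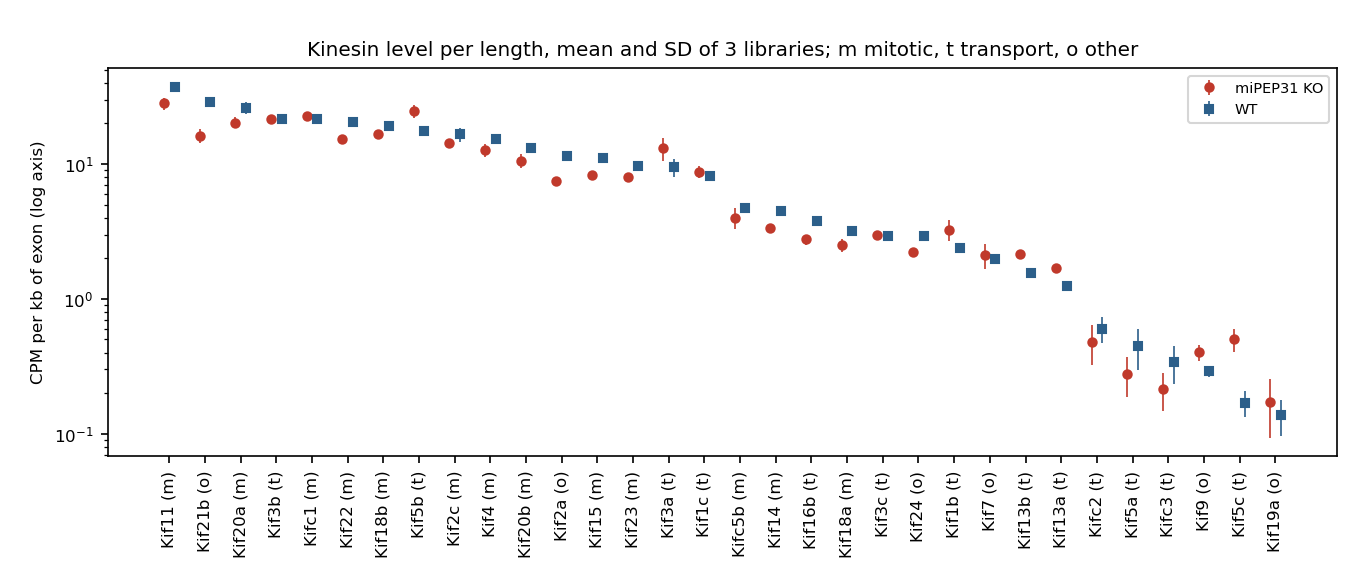
Mean level of the 32 tested kinesins in CPM per kilobase of exon on a log axis, with the SD of 3 libraries, miPEP31 KO circles left of WT squares and genes ordered by their WT level. Kif11 leads both groups (28.2 in KO, 37.1 in WT), and Kif21b lies at 16.2 in KO, against 29.0 in WT where it is second.

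With libraries scaled over all rows, most of the motors that build the spindle fell in the KO. Kif11 (ENSMUSG00000012443, GRCm38 chromosome 19, 37376403 to 37421859), the kinesin-5 that slides antiparallel microtubules apart and makes the spindle bipolar, had 234, 208 and 190 CPM in the KO libraries and 271, 275 and 283 CPM in the WT libraries. The KO libraries all lay below the WT libraries, a log2 ratio of -0.39 (SE 0.08, edgeR adjusted p = 0.00499). Kif15 is a kinesin-12 that bundles spindle microtubules and can stand in for Kif11. Kif15 had 94.3, 90.7 and 88.3 CPM in the KO libraries and 114, 126 and 124 CPM in the WT libraries. It fell by a like amount, with a log2 ratio of -0.41 (SE 0.06, edgeR adjusted p = 0.00134), and the ratio of Kif11 to Kif15 per length was 3.41 ± 0.244 in the KO and 3.38 ± 0.147 in the WT (SD, n = 3 each). Kif18a dampens chromosome oscillation, and Kif18b shortens astral microtubules. Kif18a had 27.4, 22.6 and 23.6 CPM in the KO libraries and 30, 31.6 and 32 CPM in the WT libraries. Kif18b had 57.8, 61.2 and 59.6 CPM in the KO libraries and 65.5, 71.2 and 68.1 CPM in the WT libraries. These kinesin-8 genes had log2 ratios of -0.35 (SE 0.09, edgeR adjusted p = 0.0147) and -0.20 (SE 0.06, edgeR adjusted p = 0.0284), and no KO library reached a WT level. Kif2c is the kinesin-13 that corrects faulty kinetochore attachments by depolymerising microtubules. Kif2c had 67.6, 60.3 and 60.8 CPM in the KO libraries and 62.3, 75.3 and 79.7 CPM in the WT libraries. WT replicate 1 lay among the KO libraries, so the groups overlapped, and Kif2c did not pass (log2 ratio -0.21, SE 0.10, edgeR adjusted p = 0.123); without WT replicate 1 it was called lower (-0.31, edgeR adjusted p = 0.0276). Leaving out WT replicate 2 or 3 or KO replicate 2 ended the calls of Kif18a and Kif18b (edgeR adjusted p 0.0516 to 0.0549 and 0.053 to 0.116), and that of Kif18b also with plain library sizes (edgeR adjusted p = 0.0754).

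Chromokinesins and the kinesins of cytokinesis followed. Kif22 is the kinesin-10 that pushes chromosome arms towards the spindle equator. Kif22 had 73.8, 74.9 and 78.4 CPM in the KO libraries and 94.5, 98.7 and 109 CPM in the WT libraries. Its log2 ratio was -0.41 (SE 0.07, edgeR adjusted p = 0.00205). Kif4 is the kinesin-4 of chromosome arms and the central spindle. Kif4 had 78.1, 69.5 and 61.9 CPM in the KO libraries and 84.2, 83.3 and 86.5 CPM in the WT libraries. The log2 ratio was -0.28 (SE 0.09, edgeR adjusted p = 0.029). Both genes had their KO libraries entirely below the WT libraries. Kif14 is a kinesin-3 that acts at the midbody. Kif14 had 37.2, 34.2 and 33.5 CPM in the KO libraries and 43.8, 47.2 and 47.8 CPM in the WT libraries. This is a log2 ratio of -0.40 (SE 0.07, edgeR adjusted p = 0.00267). Kif23 is the motor of the centralspindlin complex that marks the cleavage plane. Kif23 had 65.3, 63.8 and 59.8 CPM in the KO libraries and 72.2, 79.3 and 76.8 CPM in the WT libraries. That gives a log2 ratio of -0.27 (SE 0.07, edgeR adjusted p = 0.0101). For both genes, again, the groups were apart. Kif20a brings the chromosomal passenger complex to the central spindle. Kif20a had 97.7, 84.3 and 82.8 CPM in the KO libraries and 100, 117 and 123 CPM in the WT libraries. Its KO to WT ratio on the log2 scale was -0.36 (SE 0.10, edgeR adjusted p = 0.0167). Kif20b is a kinesin-6 that acts in abscission. Kif20b had 81.3, 74.7 and 64.9 CPM in the KO libraries and 88.3, 93.9 and 91.4 CPM in the WT libraries. On the log2 scale the ratio was -0.31 (SE 0.09, edgeR adjusted p = 0.019). For Kif20a the highest KO and lowest WT library nearly met. Leaving out single libraries ended several of these calls: that of Kif4 when any WT library or KO replicate 2 was left out (edgeR adjusted p 0.0722 to 0.0891), that of Kif20a for WT replicate 2 or 3 or KO replicate 2 (0.0614 to 0.0667), that of Kif20b for WT replicate 2 or 3 (0.0573 to 0.0714) and that of Kif23 for WT replicate 2 (edgeR adjusted p = 0.0503).

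Kifc1 was the mitotic kinesin whose log2 ratio lay above 0. It encodes the kinesin-14 that walks to minus ends, focuses spindle poles and pulls inwards against Kif11. Kifc1 had 80.9, 74.6 and 76.1 CPM in the KO libraries and 73.1, 73.1 and 74.3 CPM in the WT libraries. The KO libraries lay just above the WT libraries without passing the test (log2 ratio 0.07, SE 0.06, edgeR adjusted p = 0.355). Set against Kif11 per length, the Kifc1 level was 0.755, 0.784 and 0.875 of it in the KO libraries and 0.589, 0.580 and 0.573 of it in the WT libraries, a pair chosen after the values were seen. Its close paralog Kifc5b had 17.6, 14.4 and 12.4 CPM in the KO libraries and 18.2, 16.9 and 17.8 CPM in the WT libraries and did not pass (log2 ratio -0.25, SE 0.13, edgeR adjusted p = 0.149), but was called lower without KO replicate 1 (-0.40, edgeR adjusted p = 0.0129). The longest annotated protein-coding transcripts of both genes were 98% identical over 2298 aligned bases, so reads can be shared between them and the level of each is uncertain.

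The mitotic kinesins moved together with other genes of the spindle. Of 25 spindle and midzone partners, 19 were lower in the KO (76.0%, where 22.2% of all rows were lower), none was higher and 6 missed the threshold (median log2 ratio -0.31). These counts and medians follow from scaling to all rows; scaled to the summed counts of the partners themselves, 2 partners were lower and 2 higher, and of the mitotic kinesins none was lower and Kifc1 was higher (log2 ratio 0.41, edgeR adjusted p = 0.00178). Aurkb is the kinase of the chromosomal passenger complex that Kif20a relocates. Aurkb had 114, 123 and 120 CPM in the KO libraries and 179, 174 and 189 CPM in the WT libraries. The ratio on a log2 scale was -0.60 (SE 0.06, edgeR adjusted p = 1.75e-04). Ect2 is the exchange factor that works with centralspindlin. Ect2 had 62.9, 55.5 and 59.1 CPM in the KO libraries and 85.6, 88.5 and 83.8 CPM in the WT libraries. The KO to WT log2 ratio was -0.54 (SE 0.07, edgeR adjusted p = 4.38e-04). Bub1b, a spindle checkpoint kinase, and Ckap5, a microtubule polymerase, fell as well. Bub1b had 140, 130 and 123 CPM in the KO libraries and 181, 190 and 195 CPM in the WT libraries, and its log2 ratio was -0.52 (SE 0.07, edgeR adjusted p = 5.38e-04). Ckap5 had 212, 195 and 191 CPM in the KO libraries and 275, 279 and 267 CPM in the WT libraries, and its log2 ratio was -0.46 (SE 0.06, edgeR adjusted p = 6.63e-04). In all 4 genes every KO library lay below every WT library. Cenpe, the kinetochore motor of the kinesin-7 family whose name kept it out of the members, averaged 123 ± 15.7 CPM in the KO and 147 ± 7.46 CPM in the WT (SD, n = 3 each) and did not pass (log2 ratio -0.26, SE 0.10, edgeR adjusted p = 0.0537). The proliferation marker Mki67 averaged 647 ± 85.7 CPM in the KO and 916 ± 48.9 CPM in the WT (SD, n = 3 each). Its log2 ratio was -0.50 (SE 0.10, edgeR adjusted p = 0.00385). Other cell cycle genes of the list did not pass, among them Top2a (log2 ratio -0.21, SE 0.09, edgeR adjusted p = 0.079), Birc5 (-0.15, SE 0.08, edgeR adjusted p = 0.145), Ccnb1 (-0.10, SE 0.09, edgeR adjusted p = 0.384) and Cdk1 (0.00, SE 0.11, edgeR adjusted p = 0.986). The summed mitotic kinesins were 0.234, 0.234 and 0.237 of the summed partners in the KO libraries and 0.232, 0.231 and 0.231 in the WT libraries. The partners' sum, which also set the scaling to them, averaged 4026 CPM in the KO and 5075 CPM in the WT. Its largest terms were Top2a, at 821 CPM in the KO and 951 CPM in the WT, and Mki67. What part a smaller share of dividing cells had was not tested.

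Promoter sequences, credited to RefSeq on build GRCm38.p6, were looked at because the mitotic members moved together. Transcripts made in G2 phase and mitosis are known for promoters with a cell cycle homology region, whose core is TTTGAA, and for CCAAT boxes bound by NF-Y, while E2F sites such as TTGGCGC mark genes of the G1 to S transition. The window of 300 bases ran from 250 before to 50 after the annotated start, both strands were searched, and a gene with 2 windows counted if either held the motif. Of the 36 members, 28 matched a symbol of the promoter table; Kif20a, Kif5a, Kif5b, Kif13b, Kifc2, Kifc3, Kif19a and Kif21b did not. CCAAT and TTGGCGC can share bases on opposite strands, but no match in a member's window overlapped another. Shown are Kif11, Kif22 and Kif15, which fell, Kifc1 and its paralog Kifc5b, and Kif5c, which had the largest rise of the family. Capitals mark each match of 1 of the 3 motifs on either strand, so that a match on the opposite strand appears as its reverse complement. The windows are chr19:37376132-37376431 (+) for Kif11, chr7:127042371-127042670 (-) for Kif22, chr9:122950831-122951130 (+) for Kif15, chr17:33890584-33890883 (-) for Kifc1, chr17:26916841-26917140 (+) for Kifc5b and chr2:49619036-49619335 (+) for Kif5c.
Kif11: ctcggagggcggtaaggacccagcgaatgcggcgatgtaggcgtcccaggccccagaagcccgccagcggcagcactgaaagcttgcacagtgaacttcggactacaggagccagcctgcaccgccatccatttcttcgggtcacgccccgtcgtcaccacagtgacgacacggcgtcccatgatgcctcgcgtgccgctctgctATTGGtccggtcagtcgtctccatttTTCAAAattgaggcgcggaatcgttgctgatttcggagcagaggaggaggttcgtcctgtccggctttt
Kif22: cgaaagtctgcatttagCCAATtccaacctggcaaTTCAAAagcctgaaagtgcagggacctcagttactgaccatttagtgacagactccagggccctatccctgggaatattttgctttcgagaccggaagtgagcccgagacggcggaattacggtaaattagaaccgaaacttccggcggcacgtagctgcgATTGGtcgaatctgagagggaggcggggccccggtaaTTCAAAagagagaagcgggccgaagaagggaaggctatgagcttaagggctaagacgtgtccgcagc
Kif15: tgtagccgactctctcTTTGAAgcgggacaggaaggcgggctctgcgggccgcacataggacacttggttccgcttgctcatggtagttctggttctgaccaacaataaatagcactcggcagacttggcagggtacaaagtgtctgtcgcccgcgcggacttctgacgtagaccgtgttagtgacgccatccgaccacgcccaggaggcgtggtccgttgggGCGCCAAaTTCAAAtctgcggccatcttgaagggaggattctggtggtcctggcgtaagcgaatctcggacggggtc
Kifc1: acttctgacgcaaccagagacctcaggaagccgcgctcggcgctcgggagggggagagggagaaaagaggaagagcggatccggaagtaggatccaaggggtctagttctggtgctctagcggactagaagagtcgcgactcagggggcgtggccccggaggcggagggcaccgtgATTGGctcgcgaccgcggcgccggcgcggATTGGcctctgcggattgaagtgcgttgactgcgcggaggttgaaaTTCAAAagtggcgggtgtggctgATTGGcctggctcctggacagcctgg
Kifc5b: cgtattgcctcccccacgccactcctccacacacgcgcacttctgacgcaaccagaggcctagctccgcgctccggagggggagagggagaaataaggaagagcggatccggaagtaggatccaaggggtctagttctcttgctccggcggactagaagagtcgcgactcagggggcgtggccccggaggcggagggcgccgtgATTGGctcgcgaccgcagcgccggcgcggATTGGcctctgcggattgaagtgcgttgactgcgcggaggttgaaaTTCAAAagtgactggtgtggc
Kif5c: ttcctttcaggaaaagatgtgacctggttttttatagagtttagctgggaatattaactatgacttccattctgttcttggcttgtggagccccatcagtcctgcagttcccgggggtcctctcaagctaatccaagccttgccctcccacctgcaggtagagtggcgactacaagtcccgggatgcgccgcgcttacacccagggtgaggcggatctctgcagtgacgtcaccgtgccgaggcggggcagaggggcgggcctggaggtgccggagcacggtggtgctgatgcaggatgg

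Counted from the annotated start, the Kif11 window held a CCAAT match at base -45 and a TTTGAA match at base -19, both on the strand opposite the gene. Kif22 had the same arrangement, with CCAAT at base -54 and TTTGAA at base -17, and a further match of each upstream. Kif15 held TTTGAA at bases -234 and -19 and TTGGCGC at base -27, and no CCAAT. The windows of Kifc1 and Kifc5b each held a pair of CCAAT matches upstream of a TTTGAA match, which lay at base 2 of Kifc1 and base 30 of Kifc5b. The Kif5c window held none of the 3 motifs.

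Over the class, TTTGAA was found for 11 of 12 mitotic kinesins with a promoter window (91.7%), 1 of 10 transport kinesins (10%) and 1 of 6 remaining kinesins (16.7%), beside 20.2% of the 27025 genes of the promoter table and 14.5% of the 10013 tested genes found in it. The exceptions were Kif18a, the mitotic kinesin without it, Kif1a in 1 of its 2 windows, and Kif26b. Within 50 bases of the start, on either side, 9 of the 12 mitotic (75%), 1 of 10 transport (10%) and 1 of 6 remaining kinesins (16.7%) held it, beside 5.72% of all genes of the table. This narrower window was chosen after the positions were seen. CCAAT was found for 8 of 12 mitotic kinesins (66.7%) and 3 of 10 transport kinesins (30%), beside 41.1% of all genes, and both motifs for 8 of 12 mitotic kinesins, none of the transport kinesins and 7.97% of all genes. TTGGCGC was found for 2 of 12 mitotic kinesins, Kif15 and Kif18a, beside 2.85% of all genes. TTTGAA was held by 8 of the 9 mitotic kinesins with a window that fell and by Kifc1, Kif2c and Kifc5b, which did not pass the test. Of the spindle and midzone partners with a window, 14 of 21 held TTTGAA (66.7%). Of genes of dynein, dynactin and their adaptors and regulators, 1 of 20 did (5%). Kifc1 and Kifc5b, whose windows share most of their sequence, were counted as separate genes in the mitotic shares. All these matches describe the letters in the windows and were not tested as sites.

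**Figure D3:**
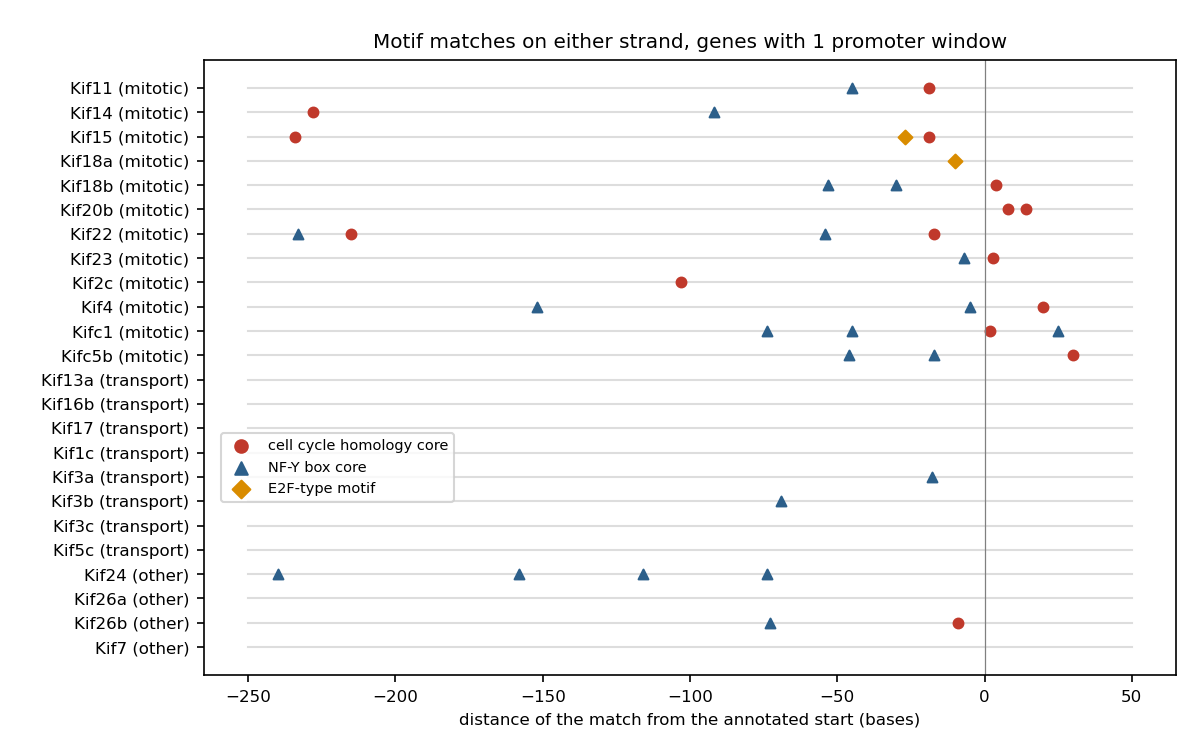
Position of motif matches from 250 bases before to 50 after the annotated start, for the 24 members with 1 promoter window; circles are the cell cycle homology core, triangles the NF-Y box core and diamonds the E2F-type motif. Circles sit within 50 bases of the start for 9 of the 12 mitotic kinesins, while none of the transport kinesins drawn has a circle. The transport kinesin Kif1a, not drawn for its 2 windows, held the core at base -44 in 1 of them.

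Among the transport kinesins, 2 of the 3 kinesin-1 heavy chains, which carry vesicles and mitochondria, were higher. Kif5b is the ubiquitous chain. Kif5b had 221, 188 and 180 CPM in the KO libraries and 142, 138 and 139 CPM in the WT libraries, with every KO library above every WT library and a log2 ratio of 0.49 (SE 0.08, edgeR adjusted p = 0.00202). Kif5c (ENSMUSG00000026764, chromosome 2, 49619298 to 49774778), a chain known mainly from neurons, had 4.35, 3.24 and 3.14 CPM in the KO libraries and 1.34, 1.39 and 0.913 CPM in the WT libraries. This was the largest rise in the family, 2.93-fold with a log2 ratio of 1.55 (SE 0.25, edgeR adjusted p = 0.00167), over WT levels near 1 CPM. Kif5a, the other neuronal chain, averaged 1.93 ± 0.633 CPM in the KO and 3.11 ± 1.04 CPM in the WT (SD, n = 3 each) and did not pass (log2 ratio -0.68, SE 0.34, edgeR adjusted p = 0.136). Kif5b nonetheless made up 96.9 ± 0.307% of the kinesin-1 heavy chain level per length in the KO and 96.6 ± 0.953% in the WT, and Kif5c 1.96 ± 0.153% in the KO and 0.938 ± 0.193% in the WT (SD, n = 3 each).

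Of the kinesin-3 motors in the transport class, Kif1b, Kif13a and Kif13b were higher and Kif16b was lower. Kif1b is a carrier of mitochondria, synaptic vesicle precursors and lysosomes. Kif1b had 69.1, 54 and 49.2 CPM in the KO libraries and 41.5, 40.7 and 43.1 CPM in the WT libraries. The log2 ratio was 0.46 (SE 0.12, edgeR adjusted p = 0.0148). Its KO replicate 1 stood highest, the groups did not overlap, and the call was lost without WT replicate 1 or 2 (edgeR adjusted p = 0.0566 and 0.0594). Kif13a moves recycling endosomes. Kif13a had 14.2, 13.8 and 13.1 CPM in the KO libraries and 10.8, 9.66 and 9.96 CPM in the WT libraries. This is a log2 ratio of 0.44 (SE 0.10, edgeR adjusted p = 0.0079). Kif13b is a carrier of membrane cargo. Kif13b had 29.9, 27.7 and 25.9 CPM in the KO libraries and 20.7, 18.8 and 21 CPM in the WT libraries. That gives a log2 ratio of 0.46 (SE 0.09, edgeR adjusted p = 0.00361). Both had tight groups that did not overlap. Kif16b went the other way: this early endosome motor had 26.5, 25.9 and 22.6 CPM in the KO libraries and 36.8, 34.8 and 31.4 CPM in the WT libraries. Its KO to WT ratio on the log2 scale was -0.46 (SE 0.09, edgeR adjusted p = 0.005), with all KO libraries below the WT libraries. Scaled to the spindle partners it was -0.13 and not called (edgeR adjusted p = 0.335). Kif1c, which carries integrins and dense core vesicles, averaged 63.9 ± 6.77 CPM in the KO and 59.6 ± 1.55 CPM in the WT (SD, n = 3 each) and did not pass (log2 ratio 0.10, SE 0.08, edgeR adjusted p = 0.344), but was called higher when scaled to the spindle partners (0.44, edgeR adjusted p = 0.0088).

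Kinesin-2, the motor of intraflagellar transport and of some endosomes, is a dimer of Kif3a with Kif3b or Kif3c. Kif3a had 37.6, 47.3 and 55.5 CPM in the KO libraries and 28.6, 34.4 and 38.6 CPM in the WT libraries. On the log2 scale the ratio was 0.47 (SE 0.16, edgeR adjusted p = 0.0376). WT replicate 3 lay above KO replicate 1, and leaving out WT replicate 1 or 2, or KO replicate 2 or 3, ended the call (0.0958 to 0.135, edgeR adjusted p). It was also lost with upper-quartile scaling and with no low-count filter (edgeR adjusted p = 0.0643 and 0.0804). Kif3b, among the most abundant transport kinesins per length, had 126, 119 and 120 CPM in the KO libraries and 123, 123 and 119 CPM in the WT libraries, and Kif3c averaged 22 ± 1.76 CPM in the KO and 21.8 ± 1.69 CPM in the WT (SD, n = 3 each). Neither passed, with log2 ratios of 0.00 (SE 0.06, edgeR adjusted p = 0.961) and 0.01 (SE 0.10, edgeR adjusted p = 0.931), but Kif3b was called higher when scaled to the spindle partners (0.34, edgeR adjusted p = 0.00518). The minus-end motor Kifc2 averaged 1.89 ± 0.615 CPM in the KO and 2.35 ± 0.517 CPM in the WT (SD, n = 3 each). Kifc3, another, averaged 1.13 ± 0.351 CPM in the KO and 1.81 ± 0.58 CPM in the WT (SD, n = 3 each). Neither passed, with log2 ratios of -0.32 (SE 0.30, edgeR adjusted p = 0.418) and -0.67 (SE 0.34, edgeR adjusted p = 0.142). For Kifc3 every KO library nonetheless lay below every WT library. Kif1a, a carrier of synaptic vesicle precursors, and Kif17, a dendritic and ciliary motor, held 30 and 25 counts in all and were not tested.

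Kif21b (ENSMUSG00000041642, chromosome 1, 136131389 to 136177998) had the largest fall in the family. This kinesin-4 limits microtubule growth and is known from neurons and from T cells, where it acts on the centrosome moving to the immunological synapse. Kif21b had 169, 213 and 209 CPM in the KO libraries and 370, 355 and 336 CPM in the WT libraries. Every KO library held less than every WT library, a 1.79-fold fall with a log2 ratio of -0.84 (SE 0.09, edgeR adjusted p = 2.78e-04), which kept its direction and its call under all 15 alternatives. The calls of Kif2a, Kif5b, Kif5c, Kif13a and Kif13b held under all of them as well. The share of Kif21b in all kinesin counts was 11 ± 1.66% in the KO and 16.6 ± 1.03% in the WT (SD, n = 3 each). The ratio of Kif21b to Kif5b per length, a pair chosen after the values were seen, was 0.501, 0.742 and 0.760 in the KO libraries and 1.71, 1.68 and 1.59 in the WT libraries. Its relative Kif21a had 6 counts in all.

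Kif2a is a kinesin-13 that depolymerises microtubules at spindle poles and in neurons. Kif2a had 49.6, 48.2 and 45.6 CPM in the KO libraries and 75.3, 73.7 and 71.9 CPM in the WT libraries. The ratio on a log2 scale was -0.62 (SE 0.06, edgeR adjusted p = 1.53e-04). Kif24 is the kinesin-13 of centrioles that holds back cilium formation. Kif24 had 17.1, 19.2 and 17.1 CPM in the KO libraries and 21.9, 24.4 and 23.6 CPM in the WT libraries. The KO to WT log2 ratio was -0.39 (SE 0.09, edgeR adjusted p = 0.00823). In both genes the KO libraries lay below the WT libraries. Scaled to the spindle partners, Kif24 was at -0.05 and not called (edgeR adjusted p = 0.706). With Kif2a counted as mitotic and Kif21b as transport, the remaining class had 1 gene lower and a median log2 ratio of 0.22, and the transport class had 2 lower. Kif7, which organises the ciliary tip in Hedgehog signalling, averaged 9.68 ± 2.01 CPM in the KO and 8.96 ± 0.57 CPM in the WT (SD, n = 3 each) and did not pass (log2 ratio 0.11, SE 0.17, edgeR adjusted p = 0.606); without KO replicate 2 its value was -0.05, and scaled to the spindle partners it was called higher (0.44, edgeR adjusted p = 0.0422). Kif9, a motile cilium gene, averaged 1.72 ± 0.231 CPM in the KO and 1.25 ± 0.12 CPM in the WT (SD, n = 3 each). Kif19a, another, averaged 0.705 ± 0.328 CPM in the KO and 0.557 ± 0.163 CPM in the WT (SD, n = 3 each). Neither passed (edgeR adjusted p = 0.14 and 0.57), but Kif9 was called higher when scaled to the spindle partners (0.79, edgeR adjusted p = 0.0265). Kif26a and Kif26b, atypical kinesins, held 19 and 30 counts and were not tested.

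Summed over their members, the mitotic kinesins reached 1013, 933 and 892 CPM in the KO libraries and 1117, 1188 and 1213 CPM in the WT libraries. The transport kinesins reached 611, 579 and 562 CPM in the KO libraries and 494, 491 and 491 CPM in the WT libraries. The remaining class reached 248, 296 and 282 CPM in the KO libraries and 478, 465 and 442 CPM in the WT libraries. In each class the groups did not overlap, although KO replicate 1 stood highest in the mitotic and transport sums and lowest in the remaining class. Single genes weighed heavily in 2 of these sums. Kif21b averaged 197 of 275 CPM in the KO and 354 of 462 CPM in the WT in the remaining class, where 3 of 6 tested log2 ratios lay above 0. Kif5b averaged 196 of 584 CPM in the KO and 140 of 492 CPM in the WT in the transport class, where 9 of 13 lay above 0. Of all kinesin counts, the transport kinesins held 32.4 ± 0.312% in the KO and 23.1 ± 0.454% in the WT, the remaining class 15.3 ± 1.75% in the KO and 21.7 ± 1.14% in the WT, and the mitotic kinesins 52.4 ± 1.51% in the KO and 55.1 ± 1.55% in the WT (SD, n = 3 each). The mitotic share overlapped between the groups, with KO replicate 1 above WT replicate 1.

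**Figure D4:**
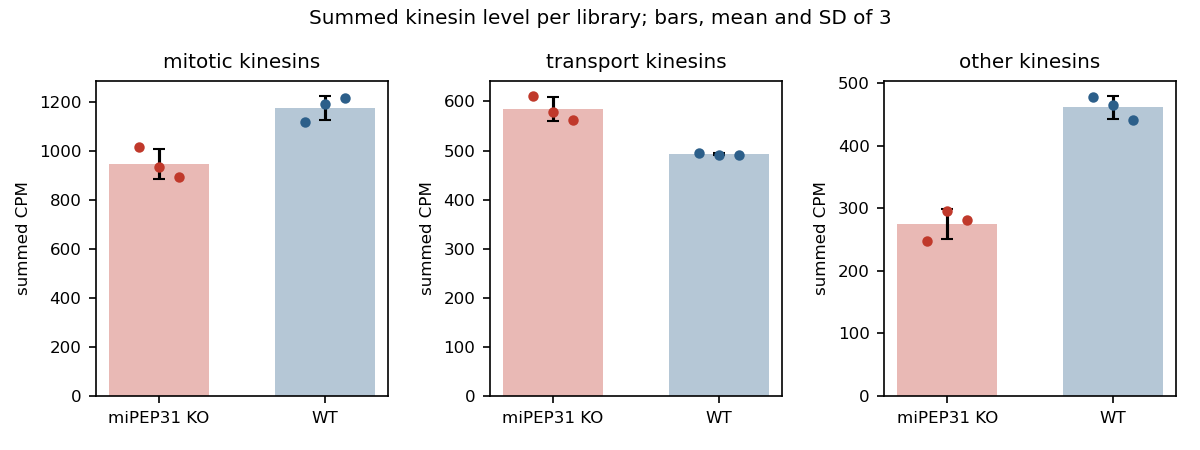
Summed CPM of the mitotic, transport and remaining kinesins, with points for the libraries, bars for the mean and error bars for the SD of 3, miPEP31 KO left of WT; axes start at 0 and differ in range. KO sums lie below WT sums for the mitotic (892 to 1013 against 1117 to 1213 CPM) and the remaining class and above them for the transport kinesins. In the remaining class Kif21b averaged 197 of 275 CPM in the KO and 354 of 462 CPM in the WT.

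The cargo side and the opposing motor were examined from lists of known partners. Of 17 tested kinesin light chains and cargo adaptors, 8 were higher (47.1%, where 25.1% of all rows were higher), 1 was lower (5.88%, where 22.2% of all rows were lower) and 8 missed the threshold (median log2 ratio 0.20). Scaled to the spindle partners, 13 were higher and 0 lower, where 6987 of all 14387 rows were higher and 1207 lower. Klc2 is a light chain that links kinesin-1 to cargo. Klc2 had 25.9, 26.3 and 23.2 CPM in the KO libraries and 13.5, 14.6 and 14.5 CPM in the WT libraries. Its log2 ratio was 0.82 (SE 0.09, edgeR adjusted p = 2.33e-04). Arl8a is a small GTPase that recruits kinesin to lysosomes. Arl8a had 33.4, 43.2 and 42.4 CPM in the KO libraries and 24.9, 24.1 and 24.1 CPM in the WT libraries. The log2 ratio was 0.70 (SE 0.11, edgeR adjusted p = 0.00115). Plekhm2, an adaptor that Arl8 proteins bind, had 30.8, 31.5 and 31.3 CPM in the KO libraries and 25.5, 24.6 and 26.1 CPM in the WT libraries. This is a log2 ratio of 0.30 (SE 0.07, edgeR adjusted p = 0.00787). Kif1bp is a kinesin-binding protein. Kif1bp had 32, 32.8 and 36.7 CPM in the KO libraries and 24.5, 25.1 and 23.1 CPM in the WT libraries. That gives a log2 ratio of 0.48 (SE 0.08, edgeR adjusted p = 0.00201). In these 4 genes no KO library overlapped a WT library. Klc1, another light chain gene, averaged 132 ± 3.64 CPM in the KO and 136 ± 2.45 CPM in the WT (SD, n = 3 each) and did not pass (log2 ratio -0.05, SE 0.05, edgeR adjusted p = 0.469). The adaptors higher were 4 with WT replicate 1 or 2 left out and 5 with WT replicate 3 or KO replicate 2 left out, and also 5 with no low-count filter. With a library left out, 2723 to 2902 of all rows were higher in these fits. With no low-count filter 3438 of 25446 were higher, beside 3609 of 14387 in the main fit. The lower one was Mapk8ip3, named after its value was seen. In this list 0 were lower when a WT library or KO replicate 2 was left out, and 2 without KO replicate 3. Over all rows, 2419 to 2569 were lower in the former fits and 3594 without KO replicate 3.

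The next list held dynein, the minus-end motor that opposes kinesins, and its activator dynactin. It also held the dynein adaptors and regulators Bicd1, Bicd2, Hook1, Hook2, Hook3, Nde1, Ndel1 and Pafah1b1. Of its 24 tested genes, 13 were higher (54.2%, where 25.1% of all rows were higher), 4 were lower (16.7%, where 22.2% of all rows were lower) and 7 missed the threshold (median log2 ratio 0.27). Scaled to the spindle partners, 18 of them were higher and 1 lower, where 6987 of all 14387 rows were higher and 1207 lower. The light chain Dynll1 had 136, 128 and 134 CPM in the KO libraries and 73.5, 78.9 and 75.8 CPM in the WT libraries. Its KO to WT ratio on the log2 scale was 0.80 (SE 0.06, edgeR adjusted p = 4.43e-05). Bicd2, an adaptor that links dynein to cargo, had 92, 89.3 and 81.9 CPM in the KO libraries and 59.3, 58.7 and 62.1 CPM in the WT libraries, and the regulator Ndel1 had 49.9, 50.1 and 50.9 CPM in the KO libraries and 37.4, 36.4 and 36.5 CPM in the WT libraries. Both rose, by 0.55 (SE 0.07, edgeR adjusted p = 4.04e-04) and 0.45 (SE 0.06, edgeR adjusted p = 5.55e-04) on the log2 scale, and the libraries of each stood apart. The adaptor Hook1 had 52.7, 56.8 and 60.3 CPM in the KO libraries and 99.6, 101 and 104 CPM in the WT libraries. On the log2 scale the ratio was -0.84 (SE 0.07, edgeR adjusted p = 6.00e-05). The motor subunit Dync1h1 averaged 305 ± 26.4 CPM in the KO and 269 ± 2.51 CPM in the WT (SD, n = 3 each) and did not pass (log2 ratio 0.18, SE 0.07, edgeR adjusted p = 0.0741).

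Of 16 tested tubulins, which form the track, 5 were higher (31.2%), 3 lower (18.8%) and 8 missed the threshold (median log2 ratio 0.13). These shares lie near the 25.1% and 22.2% of all rows. Without WT replicate 1, 3 tubulins were higher, where 2795 of all 14786 rows were higher. Scaled to the spindle partners 11 were higher and 1 was lower, where 6987 of all 14387 rows were higher and 1207 lower. Tubb2a had 40.5, 37.3 and 33.6 CPM in the KO libraries and 13.4, 13.6 and 11.7 CPM in the WT libraries. The ratio on a log2 scale was 1.53 (SE 0.10, edgeR adjusted p = 2.79e-05). Tubb4a had 4.83, 5.84 and 7.48 CPM in the KO libraries and 22.1, 22.7 and 16.5 CPM in the WT libraries. The KO to WT log2 ratio was -1.76 (SE 0.19, edgeR adjusted p = 2.28e-04). These were the extremes among the 4 tubulins named by smallest adjusted p. Tubb3, averaging 2.26 ± 0.584 CPM in the KO and 0.57 ± 0.294 CPM in the WT (SD, n = 3 each), rose further. For this low gene the log2 ratio was 1.97 (SE 0.39, edgeR adjusted p = 0.00439). Tuba1a had 235, 216 and 254 CPM in the KO libraries and 163, 159 and 155 CPM in the WT libraries. Its log2 ratio was 0.57 (SE 0.07, edgeR adjusted p = 4.76e-04). Tube1, a centriolar tubulin, had 44.8, 49.6 and 52 CPM in the KO libraries and 66.1, 72.5 and 69.3 CPM in the WT libraries. The log2 ratio was -0.51 (SE 0.07, edgeR adjusted p = 0.00107), and this call ended when scaled to the spindle partners (-0.16, edgeR adjusted p = 0.231). Tubb2a, Tubb4a, Tuba1a and Tube1 each had groups that did not overlap. Tubulin genes are close paralogs that can share reads, so their levels are uncertain.

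Of 14 intraflagellar transport genes, the cargo scaffold of kinesin-2, 4 were higher (28.6%), 3 lower (21.4%) and 7 missed the threshold (median log2 ratio 0.20). These shares too lie near the 25.1% and 22.2% of all rows. With plain library sizes 7 were higher, where 4086 of all 14387 rows were higher. Scaled to the spindle partners 8 were higher and 0 lower, where 6987 of all 14387 rows were higher and 1207 lower. Ift80 had 39, 43.4 and 41.8 CPM in the KO libraries and 66.1, 61.9 and 58.8 CPM in the WT libraries. This is a log2 ratio of -0.59 (SE 0.07, edgeR adjusted p = 4.32e-04). Ift140 had 26.8, 28.2 and 27.4 CPM in the KO libraries and 40.6, 39.6 and 37.6 CPM in the WT libraries. That gives a log2 ratio of -0.52 (SE 0.07, edgeR adjusted p = 5.75e-04). Ift52 had 21.7, 24.2 and 26.6 CPM in the KO libraries and 41.3, 36.7 and 37.4 CPM in the WT libraries. Its KO to WT ratio on the log2 scale was -0.67 (SE 0.09, edgeR adjusted p = 8.56e-04). These genes fell with no overlap between the groups, and their calls ended when scaled to the spindle partners (edgeR adjusted p 0.0717 to 0.159). Ift20, which also works at the Golgi, had 24.8, 22.9 and 27.5 CPM in the KO libraries and 18.2, 18.7 and 16.3 CPM in the WT libraries. On the log2 scale the ratio was 0.50 (SE 0.10, edgeR adjusted p = 0.00438), and its KO libraries all lay above the WT libraries.

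**Figure D5:**
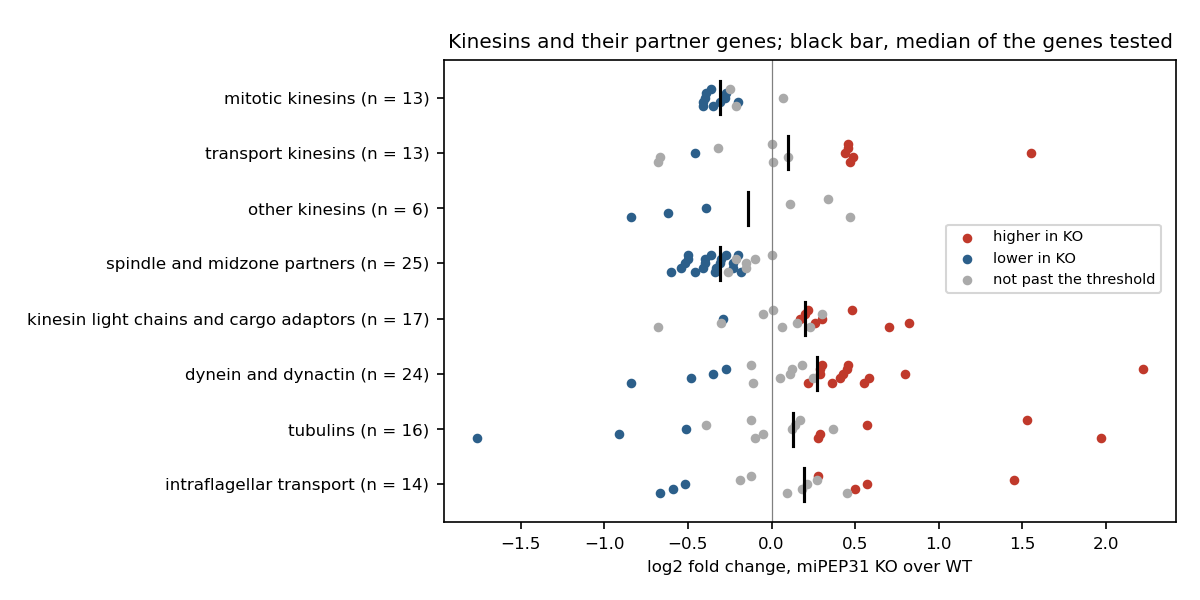
Log2 fold change of miPEP31 KO over WT for each tested gene (point) of the kinesin classes and the partner lists, red where higher, blue where lower and grey where not past the threshold, with a black bar at the median. With scaling over all rows, the medians of the mitotic kinesins and of the spindle partners both lie at -0.31. Those of transport kinesins, kinesin adaptors and the dynein and dynactin list lie at 0.10, 0.20 and 0.27. Scaled to the spindle partners, the mitotic median was 0.02. That scaling holds the partners' sum constant, so it cannot test the mitotic shift.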

How the data were processed

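RNA of 3 miPEP31 KO and 3 WT libraries was sequenced after preparation with a TruSeq kit, per the labels' protocols. The authors deposited estimated counts per gene, of which 72.2% of the positive values are whole numbers. Bowtie 0.12.2 and build mm8 are named in the submitters' processing notes without a role. The sources used here do not name the counting program, the annotation or the use of strand, so overlapping genes, antisense ones included, may share reads. Rows without an Ensembl gene ID (944, holding 0.903 to 1.56% of the counts) took part like other rows. Symbols were found for 51633 of 51912 Ensembl IDs, and the coordinates and exon lengths are of GRCm38.

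The estimated counts deposited by the authors were rounded to whole numbers, scaled by TMM and tested over all rows that passed filterByExpr with edgeR 4.0.16 (quasi-likelihood, robust, Benjamini-Hochberg) in R 4.3.3. Adjusted p under 0.05 was the threshold. CPM are counts per 1000000 of the TMM-scaled library size, with ± as SD. DESeq2 1.42.0, limma-voom 3.58.1, other scalings and filters, a replicate block and the removal of each library were alternatives. The code was tested on simulated data. Mir31, the miR-31 precursor, had 0 counts in all libraries, so the KO could not be checked from it.

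The members, their classes and the partner and marker lists were chosen with earlier results of these data known. Named were all members and the 4 genes of each partner list with the smallest adjusted p. Cenpe, Mki67, Top2a, Birc5, Ccnb1, Cdk1, Klc1, Dync1h1, Mapk8ip3 and Tubb3 were added after their values were seen. A planned protein comparison of Kifc1 with Kifc5b was replaced by one of their transcripts, because no protein table was used here. Promoter windows and motif positions are described and not tested.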

Additional observations from a re-analysis of the deposited data

How the results depend on the processing

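Over the 32 kinesins tested and 15 alternatives, 413 of 479 log2 fold changes kept their direction and side of the threshold. With the sign kept, 36 lost their call and 7 gained one, and 23 changed sign. Among those that changed sign, Kif4, Kif18b, Kif20b and Kif23 also lost their call when scaled to the spindle partners (edgeR adjusted p = 0.579, 0.193, 0.812 and 0.467). Across single libraries left out, the mitotic kinesins lower in the KO numbered 4 to 11 and all kinesins lower 8 to 15. Of all rows 2419 to 3594 were lower. The lowest of each of these counts came without WT replicate 2. Scaling to the summed spindle and midzone partners was added after the data were seen, and by construction it holds that list constant. Under it the medians were 0.02 for mitotic, 0.44 for transport, 0.20 for remaining and 0.07 for all kinesins; the counts higher and lower were 1 and 0 mitotic, 8 and 0 transport, 2 and 2 remaining, 11 and 2 of all kinesins, and 6987 and 1207 of all genes. The sign changed under it for Kif18b (0.14), Kif2c (0.13), Kifc5b (0.07), Kif23 (0.06), Kif4 (0.05), Kifc2 (0.03) and Kif20b (0.02). Kif3b lay near 0 and moved to -0.01 with DESeq2, with its size factors or with no filter, to -0.00 with the 1 CPM filter, to -0.03 with upper-quartile scaling, and between -0.02 and 0.01 with a library left out. Kif3c moved to -0.01 with DESeq2 or its size factors, to -0.00 with no filter, to -0.02 with upper-quartile scaling, and between -0.06 and 0.07 with a library left out. Kif7 lay between -0.05 (without KO replicate 2) and 0.25 with a library left out, and Kif3b otherwise passed no threshold except under partner scaling (0.34). With Kif2a counted as mitotic and Kif21b as transport, the remaining class had a median of 0.22 and 1 gene lower, and the transport class 2 lower. For these shifts other than the scaling and the regrouping the cause was not tested. Same-numbered KO and WT libraries did not deviate together (r = 0.00103, -0.00718 and -0.0156 over genes), so the replicate numbers gave no pairing; with the replicate block 7 mitotic kinesins were lower, 6 transport kinesins were higher, the calls of Kif4, Kif18b and Kif20a were not made (edgeR adjusted p = 0.052, 0.0657 and 0.052), 5 adaptors were higher and 0 lower, and 3049 of all genes were higher and 2687 lower.

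With 3 libraries a group, the low genes Kif5a, Kifc2, Kifc3 and Kif19a did not pass the threshold, while Kif5c at a like level was called. This does not show that the groups were alike, and the Kifc3 libraries did not overlap. Counts of Kifc1 and Kifc5b, and of the tubulins, are uncertain for their near-identical copies.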
